A study of Mus musculus with 6 samples.

Results

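Lysosomes are acidic organelles that break down glycans, lipids and proteins with soluble hydrolases, most of which are tagged with mannose 6-phosphate and delivered from the Golgi. Their limiting membrane carries heavily glycosylated proteins, channels and transporters that export the products. In neurons, loss of a single lysosomal enzyme can cause a storage disease, and lysosomes also degrade ferritin, which releases iron. The genes described here encode 55 lysosomal enzymes, cofactors and membrane proteins, chosen by symbol and grouped by substrate and by soluble or membrane location. The choice was made with earlier results of these data known. Of the 55 symbols, 52 matched a row among 11609 mRNA genes; Ctsc, Ctsh and Dnase2a were not analysed here. Of the 52, 51 reached 1 FPKM (fragments per transcript length and library size) in at least 3 of the 6 libraries and were tested, and Cd68 did not.

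The cells were N2a, a mouse neuroblastoma line, differentiated with 10 µM retinoic acid over 96 h in medium with 2% serum. They then received 5 µM RSL3 for 24 h (3 libraries), or the solvent DMSO (3 libraries). RSL3 inhibits GPX4, the enzyme that reduces lipid peroxides, and induces ferroptosis, an iron-dependent form of cell death. All 6 libraries come from 1 tumour line treated with retinoic acid, and the comparison asks which transcripts differ after 24 h of RSL3. Ferroptosis itself was not measured here.

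The labels call the cells neurons: 14 of 17 neuroblast and neuronal markers matched a row. Those 14 summed to 398 to 462 FPKM with RSL3 and 498 to 503 FPKM with DMSO. Of the 13 tested, 4 fell, against 3.92% of all tested genes. Of 15 macrophage and microglia markers, 0 matched a row and none was analysed here. Fibroblast markers (3 of 8 matched) summed to 5.03 to 5.42 FPKM with RSL3 and 6.83 to 10.8 FPKM with DMSO, and of 8 glia markers 1 matched. Only 1 fibroblast and 1 glia marker were tested, and 0 rose and 0 fell, against 2.46% and 3.92% of all tested genes. Pdgfrb, the fibroblast marker tested, was lower in every RSL3 library and did not pass (adjusted p = 0.0527 in limma). Mbp, the glia marker, overlapped between groups. With so few tested, these counts do not show that the markers were unchanged. All 20 liver transcripts matched. They summed to 18.9 to 31.8 FPKM with RSL3 and 73.4 to 103 FPKM with DMSO, and all 15 tested fell, against 3.92% of all tested genes. Gm26917 and Gm42418, lncRNAs of the ribosomal RNA locus, summed to 26639 to 33129 FPKM with RSL3 and 18793 to 22979 FPKM with DMSO. The RSL3 libraries differed from each other in a way tied to transcript GC content. The difference of RSL3 replicate 1 from the other RSL3 libraries correlated with GC content at 0.64 across genes. For RSL3 replicates 2 and 3 the same correlation was -0.6 and -0.23. Each library is set against the others of its group, so these values depend on each other and do not single out 1 library. The part of these differences in the results was not tested. In bulk RNA, fewer cells of a type and less RNA per cell cannot be told apart. Whether replicates are separate cultures is not stated, so p-values measure the spread between these libraries, which may be technical.

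With RSL3, 11 of the 51 tested lysosomal genes rose (21.6%) and 0 fell. Of all 10590 tested genes, 2.46% rose and 3.92% fell in the same limma fit, with Benjamini-Hochberg adjustment and a threshold of 0.05. Because the members were chosen with earlier results of these data known, these shares are set side by side as a description only. The 11 were Creg1, Gla, Neu1, Ctsd, Ctsa, Cln3, Ctns, Gaa, Cd63, Tpp1 and Arsa, and in each of them the lowest RSL3 value exceeded the highest DMSO value. At an unadjusted p under 0.05, 22 members were higher (9.86% of all tested genes) and 1 was lower (14.3%). The median log2 fold change, on the log2(FPKM + 1) scale used throughout, was 0.18 for the members and -0.03 for all tested genes. The log2(FPKM + 1) scale understates the change of genes with low levels. The changes were small, with log2 fold changes between -0.19 and 0.60. Each is given below with its standard error and its adjusted p from limma.

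Groups that do not overlap were also more often ordered one way. All RSL3 libraries exceeded all DMSO libraries for 25 of the 51 members (13.4% of all tested genes), and lay below them for 4 (19.6% of all tested genes): Gusb, Lgmn, Scpep1 and Arsb. In the remaining 22 the groups overlapped. The log2 fold change was above 0 for 40 of the 51 (43.6% of all tested genes).

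**Figure D1:**
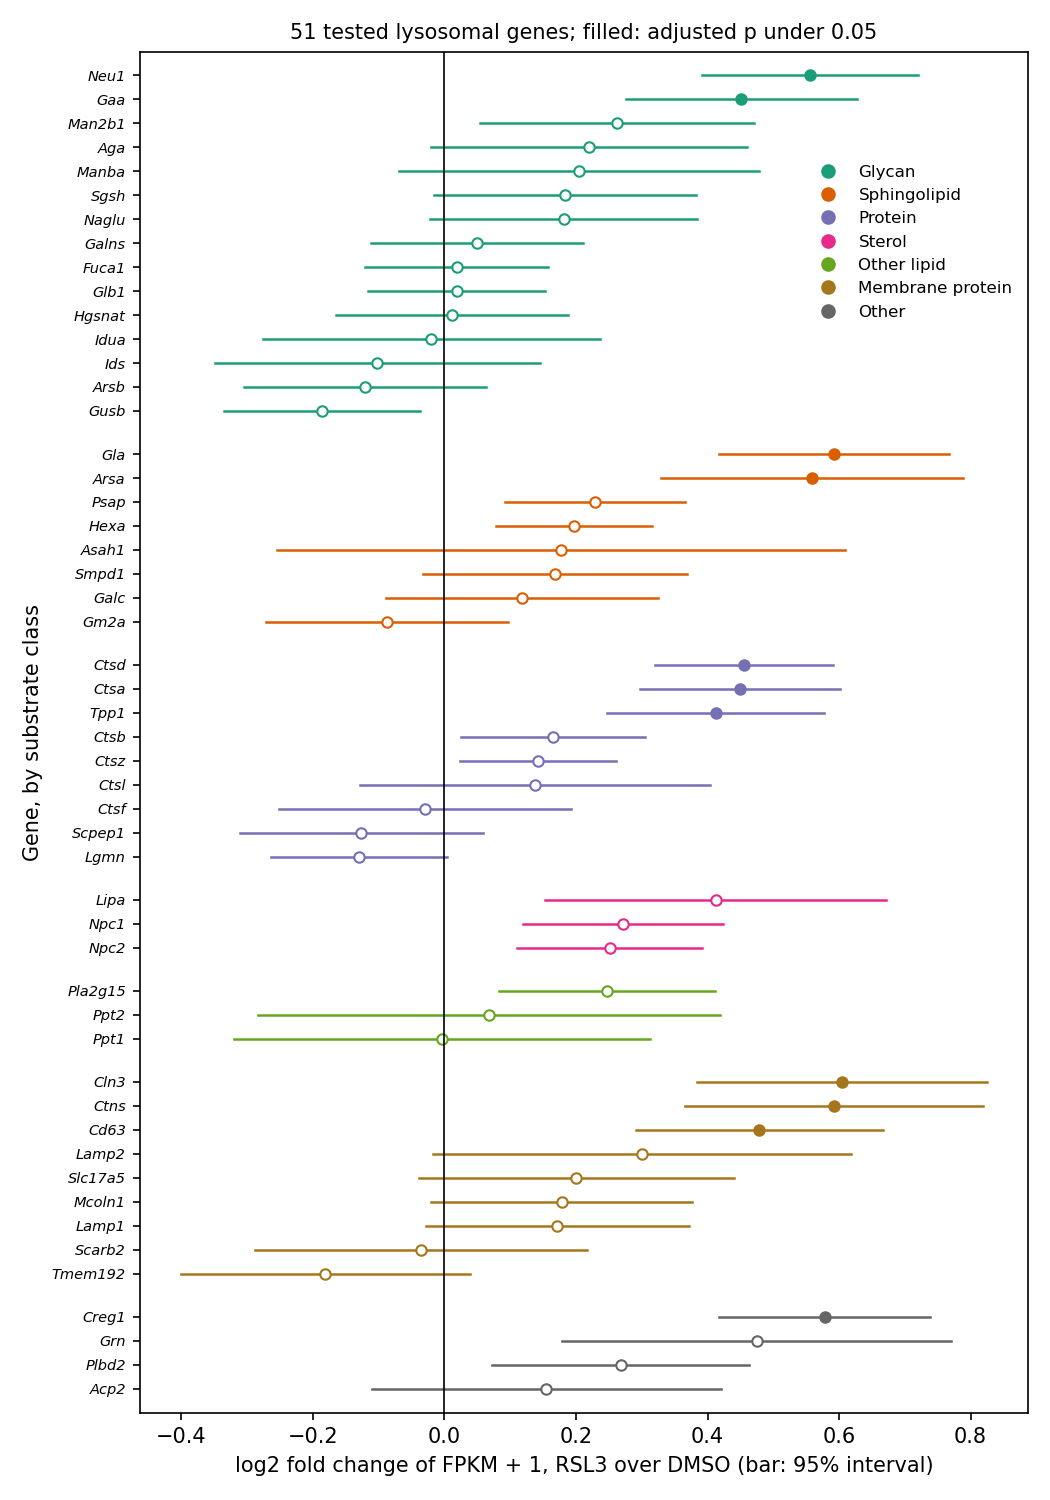
Log2 fold change of log2(FPKM + 1), RSL3 over DMSO, for the 51 tested lysosomal genes by substrate class, with 95% intervals from limma on 3 libraries each; filled points have an adjusted p under 0.05. All 11 filled points lie right of 0, and the lowest point is Gusb at -0.19.

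In level, the transcripts were dominated by a few genes. Lamp1 (241 FPKM over the 6 libraries), Psap (229 FPKM), Lgmn (228 FPKM), Ctsd (216 FPKM) and Ctsz (140 FPKM) made up 53.2% of the summed FPKM of the 52 matched genes. That sum was 2077, 2110 and 2173 FPKM in the RSL3 libraries and 1806, 1895 and 1830 FPKM in the DMSO libraries. It made up 1.02% ± 0.0266 of all mRNA FPKM with RSL3 and 0.825% ± 0.0207 with DMSO (SD, n = 3 each). The ranges did not overlap. All mRNA FPKM summed to 200135 to 213765 with RSL3 and 220605 to 225295 with DMSO. This lower total with RSL3 adds to the difference in share.

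Not all calls rested equally on the 6 libraries. Neu1 and Creg1 passed in all 6 fits that left out 1 library. Gla and Ctsd passed in 5 and were lost without DMSO replicate 3, where 2 members rose (0.444% of all tested genes) and 0 fell (0.925%). The other 7 were lost without DMSO replicate 1, without DMSO replicate 2 and without RSL3 replicate 3, and also without DMSO replicate 3. Without DMSO replicate 1, 4 members rose (0.614% of all tested genes) and 0 fell (1.24%). Without DMSO replicate 2, 4 rose (0.576%) and 0 fell (0.916%), and without RSL3 replicate 3, 4 rose (0.548%) and 0 fell (1.24%). Without RSL3 replicate 1, by contrast, 20 members rose (5.11% of all tested genes) and Tmem192 fell (7.16% of all tested genes).

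Other scalings gave more calls, and none removed any of the 11. With median-ratio scaling 14 members rose (2.78% of all tested genes) and 0 fell (3.62%), Lipa, Npc1 and Npc2 being added. With quantile normalization 19 rose (3.31%) and 0 fell (3.11%); all tested genes then split into 350 that rose and 329 that fell, against 261 and 415 as deposited. With trends on transcript GC content and length removed, 23 rose (7.51%) and Gusb fell (9% of all tested genes).

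**Figure D2:**
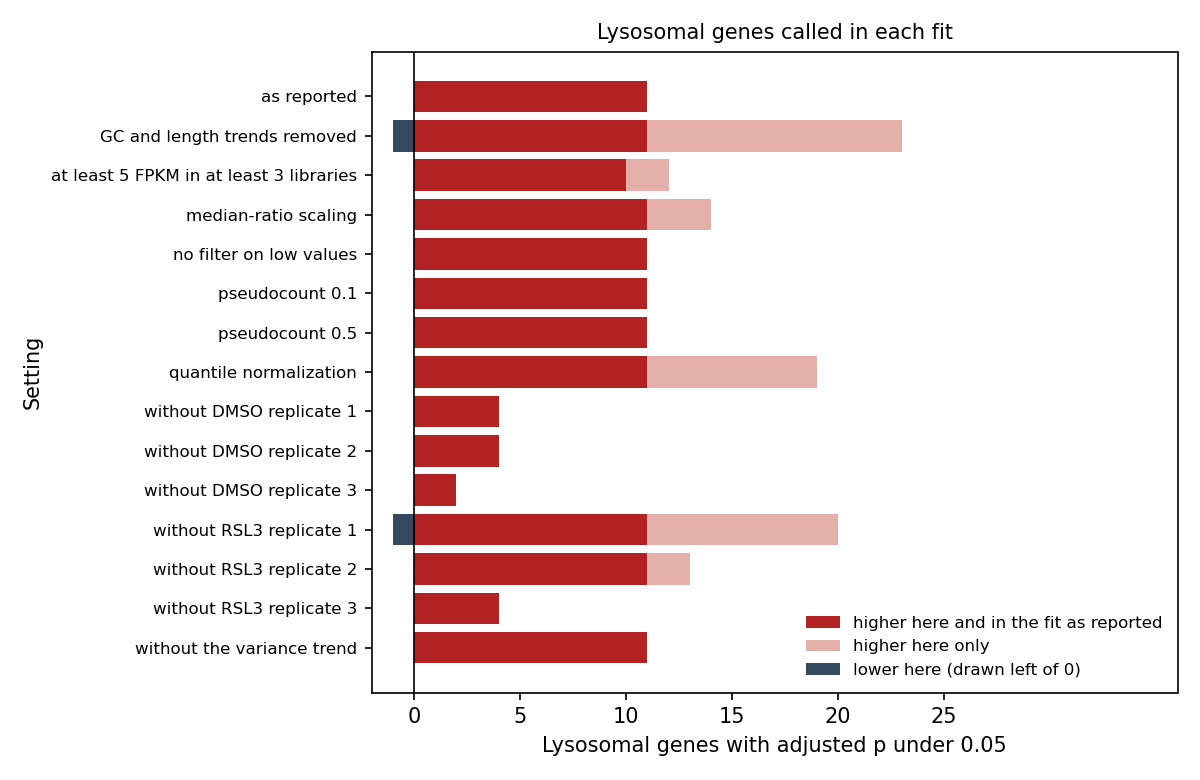
Number of lysosomal genes with an adjusted p under 0.05 in the fit as reported and in 14 of the 15 alternative fits (the replicate block is not drawn), with those that rose right of 0 and those that fell left of 0. The count that rose is between 2, without DMSO replicate 3, and 23, with GC and length trends removed, and at most 1 gene fell.

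**Figure D3:**
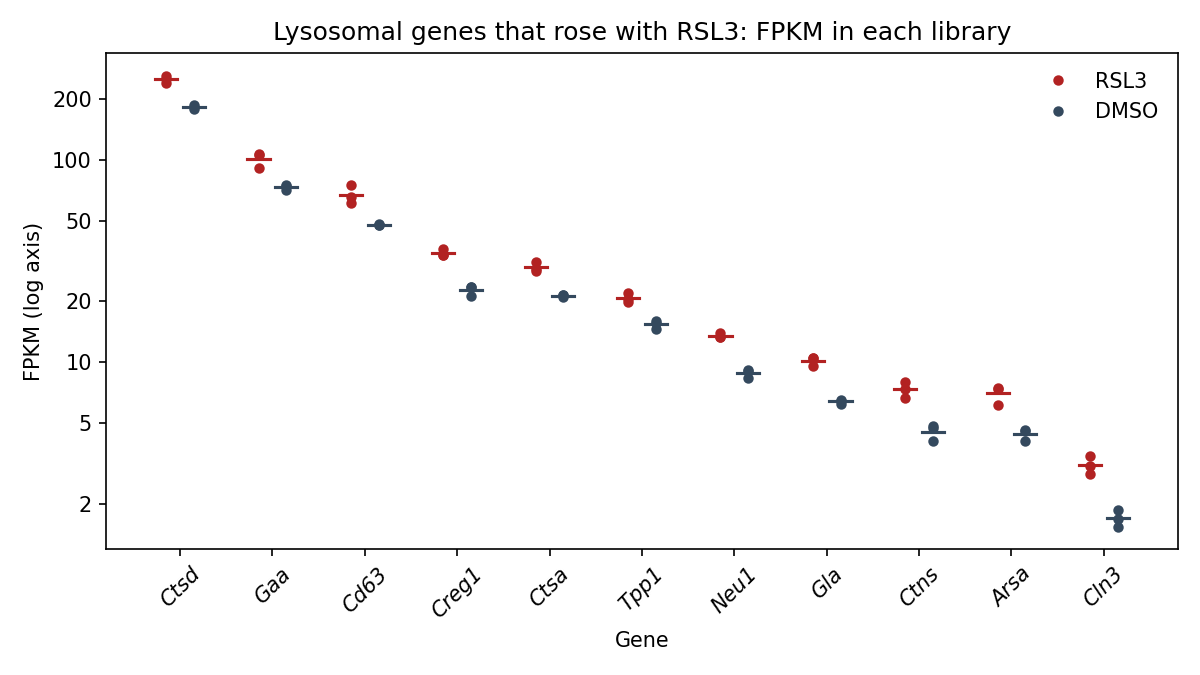
FPKM (log axis) of the 11 lysosomal genes that rose, in each of the 3 RSL3 libraries (left of each pair) and the 3 DMSO libraries (right); points are libraries and bars are group means. In each gene the lowest RSL3 point lies above the highest DMSO point, from Ctsd at the top to Cln3 at the bottom.

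Among glycan-degrading enzymes 2 of 15 rose and 0 fell, against 2.46% and 3.92% of all tested genes. Their median log2 fold change was 0.05. With quantile normalization that median was 0.10, under median-ratio scaling 0.08, without RSL3 replicate 3 also 0.08, and 0.18 once Hexa was counted with the glycan and Glb1 with the sphingolipid enzymes, since each acts on both. Both that rose act on sugars other than glycosaminoglycans. Neu1, the sialidase that removes terminal sialic acids (ENSMUSG00000007038.5, chr17:34931253-34935953, plus strand), had 14.0, 13.3 and 13.3 FPKM with RSL3, against 8.41, 9.11 and 9.16 FPKM with DMSO (log2 fold change 0.56 ± 0.07, adjusted p = 0.00725). Gaa, the acid alpha-glucosidase that degrades glycogen (ENSMUSG00000025579.14, chr11:119267887-119285454, plus strand), had 107, 91.4 and 105 FPKM with RSL3, against 71.0, 75.3 and 74.4 FPKM with DMSO (log2 fold change 0.45 ± 0.07, adjusted p = 0.0171). The RSL3 libraries of both genes were all higher than the DMSO libraries.

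The other 5 enzymes of oligosaccharide breakdown did not pass the test, and the median of all 6 was 0.21. Glb1, the beta-galactosidase found in a complex with Neu1 and Ctsa, had 30.2, 29.1 and 29.9 FPKM with RSL3, against 29.6, 30.0 and 28.5 FPKM with DMSO (log2 fold change 0.02 ± 0.06, adjusted p = 0.880). Its groups overlapped, and its 95% interval ran between -0.12 and 0.15. Aga, which cleaves the link between sugar and asparagine, had 7.04, 9.07 and 8.61 FPKM with RSL3, against 6.61, 6.86 and 7.25 FPKM with DMSO (log2 fold change 0.22 ± 0.10, adjusted p = 0.240), and Manba, the beta-mannosidase, had 2.46, 3.33 and 3.48 FPKM with RSL3, against 2.52, 2.71 and 2.36 FPKM with DMSO (log2 fold change 0.20 ± 0.12, adjusted p = 0.333). In both, RSL3 replicate 1 lay among the DMSO libraries and the other RSL3 libraries above them, and both passed once it was left out. Man2b1, the alpha-mannosidase, was higher in all RSL3 libraries (log2 fold change 0.26 ± 0.09, adjusted p = 0.127), and Fuca1, the alpha-fucosidase, overlapped (log2 fold change 0.02 ± 0.06, adjusted p = 0.880).

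Of the 8 genes for glycosaminoglycan breakdown 0 rose and 0 fell in limma, against 2.46% and 3.92% of all tested genes. At an unadjusted p under 0.05, 0 were higher and 1 was lower, against 9.86% and 14.3% of all tested genes. For 8 genes these counts are near those shares. Their median log2 fold change was -0.004 as deposited, 0.017 with median-ratio scaling and 0.022 with quantile normalization. Without single libraries it was -0.052 to 0.038. Their log2 fold changes ran between -0.19 and 0.18. Sgsh and Naglu, both in heparan sulfate breakdown, were higher in every RSL3 library, and Gusb and Arsb, the beta-glucuronidase and arylsulfatase B, were lower in every RSL3 library. In Arsb 32.3% of exonic bases overlap Gm26527, and in Sgsh 21.6% overlap Card14, both on the other strand. Gusb had the most negative value of all members (log2 fold change -0.19 ± 0.06, adjusted p = 0.129). Idua, the alpha-iduronidase, lay close to the filter with 0.866, 1.35 and 1.14 FPKM with RSL3, against 0.976, 1.28 and 1.17 FPKM with DMSO (log2 fold change -0.02 ± 0.11, adjusted p = 0.937), and its sign changed when single libraries were left out. Hgsnat, the membrane-bound acetyltransferase of heparan sulfate breakdown, had 7.33, 8.04 and 8.08 FPKM with RSL3, against 7.75, 7.98 and 7.49 FPKM with DMSO (log2 fold change 0.01 ± 0.08, adjusted p = 0.944), also with a sign that depended on single libraries. The 8 genes summed to 54.2, 53.7 and 53.1 FPKM with RSL3 and 54.4, 55.4 and 53.0 FPKM with DMSO.

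Of the 8 sphingolipid genes 2 rose and 0 fell, against 2.46% and 3.92% of all tested genes, with a median of 0.19. Gla, the alpha-galactosidase that acts on globotriaosylceramide (ENSMUSG00000031266.6, chrX:134588149-134601125, minus strand), had 9.54, 10.5 and 10.5 FPKM with RSL3, against 6.55, 6.47 and 6.24 FPKM with DMSO (log2 fold change 0.59 ± 0.07, adjusted p = 0.00721). Arsa, the arylsulfatase that desulfates sulfatide (ENSMUSG00000022620.14, chr15:89472476-89477425, minus strand), had 7.50, 6.18 and 7.37 FPKM with RSL3, against 4.07, 4.64 and 4.60 FPKM with DMSO (log2 fold change 0.56 ± 0.10, adjusted p = 0.0201). The groups of both were apart, and 18.8% of the exonic bases of Arsa overlap the antisense gene C230037L18Rik; how strand was handled in counting is not stated.

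The most abundant sphingolipid genes differed less. Psap, the precursor of the saposins that present lipids to their hydrolases, had 254, 237 and 250.1 FPKM with RSL3, against 202, 215 and 214 FPKM with DMSO (log2 fold change 0.23 ± 0.06, adjusted p = 0.0644). Hexa, the alpha subunit of hexosaminidase, had 121, 124 and 121 FPKM with RSL3, against 105, 108 and 106 FPKM with DMSO (log2 fold change 0.20 ± 0.05, adjusted p = 0.0658). Neither passed as deposited, although in both every RSL3 library was above every DMSO library, and both passed with quantile normalization. Asah1, the acid ceramidase, Smpd1, the acid sphingomyelinase, Galc, the galactosylceramidase, and Gm2a, the GM2 activator, had overlapping groups, with log2 fold changes between -0.09 and 0.18.

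Of the 9 tested genes for protein breakdown 3 rose and 0 fell, against 2.46% and 3.92% of all tested genes, and the median was 0.14. With quantile normalization 5 rose (3.31% of all tested genes) and the median was 0.26. Without single libraries 0 to 3 rose. Over all tested genes 0.444% rose without DMSO replicate 3 and 5.11% without RSL3 replicate 1. In the fit with FPKM as deposited, the genes that rose were Ctsd, Ctsa and Tpp1. The 3 are an aspartic and 2 serine peptidases. Ctsd, the aspartic protease cathepsin D (ENSMUSG00000007891.16, chr7:142375911-142388038, minus strand), had 251, 239 and 261 FPKM with RSL3, against 182, 186 and 178 FPKM with DMSO (log2 fold change 0.46 ± 0.06, adjusted p = 0.00731). Ctsa, the serine carboxypeptidase that protects Neu1 and Glb1 (ENSMUSG00000017760.15, chr2:164832873-164841032, plus strand), had 28.4, 28.8 and 31.4 FPKM with RSL3, against 21.6, 21.0 and 21.4 FPKM with DMSO (log2 fold change 0.45 ± 0.06, adjusted p = 0.0111). Tpp1, the tripeptidyl peptidase lost in a form of Batten disease (ENSMUSG00000030894.5, chr7:105744811-105752235, minus strand), had 20.6, 19.9 and 21.9 FPKM with RSL3, against 15.6, 16.0 and 14.6 FPKM with DMSO (log2 fold change 0.41 ± 0.07, adjusted p = 0.0182). The groups of all 3 were apart. In Ctsd, 34.4% of exonic bases are shared with Gm49369 on the same strand, so reads there may belong to either; in Ctsa 10.5% overlap Pltp on the other strand.

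Of the cysteine cathepsins 0 of 4 tested passed with FPKM as deposited, at a median of 0.14. For 4 genes this is near the shares of all tested genes that rose (2.46%) and fell (3.92%). No difference between peptidase types was tested. Ctsb and Ctsz rose with quantile normalization, and Ctsb also with GC and length trends removed. Ctsb, an endopeptidase that also removes C-terminal dipeptides (log2 fold change 0.16 ± 0.06, adjusted p = 0.147), and Ctsz, a carboxypeptidase (log2 fold change 0.14 ± 0.05, adjusted p = 0.143), were higher in every RSL3 library. Ctsl overlapped between groups (log2 fold change 0.14 ± 0.11, adjusted p = 0.509), and 26.8% of its exonic bases overlap Gm47123 on the other strand. Ctsf, another cysteine cathepsin, had 1.32, 1.22 and 1.03 FPKM with RSL3, against 1.21, 1.42 and 1.08 FPKM with DMSO (log2 fold change -0.03 ± 0.09, adjusted p = 0.884) and changed sign when single libraries were left out. Lgmn, the asparaginyl endopeptidase that processes cathepsins and the most abundant gene of the class over the 6 libraries, had 209, 226 and 219 FPKM with RSL3, against 232, 243 and 240.03 FPKM with DMSO (log2 fold change -0.13 ± 0.06, adjusted p = 0.216). All RSL3 libraries were below the DMSO libraries, as they were for Scpep1, a serine carboxypeptidase (log2 fold change -0.13 ± 0.08, adjusted p = 0.376), and neither passed. With RSL3 alone Ctsd, at a mean of 250.3 FPKM, was above Lgmn, at 218 FPKM.

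Of the 3 sterol genes 0 rose and 0 fell in limma, against 2.46% and 3.92% of all tested genes. For 3 genes these counts are near those shares. The median of the sterol genes was 0.27. In each, every RSL3 library was above every DMSO library, against 13.4% of all tested genes. Npc1, the membrane protein that exports cholesterol, had 13.0, 12.9 and 13.6 FPKM with RSL3, against 10.6, 11.0 and 10.6 FPKM with DMSO (log2 fold change 0.27 ± 0.06, adjusted p = 0.0540). Npc2, which hands cholesterol to Npc1, had 26.8, 27.8 and 28.2 FPKM with RSL3, against 23.4, 23.5 and 22.2 FPKM with DMSO (log2 fold change 0.25 ± 0.06, adjusted p = 0.0540). Lipa, the acid lipase that hydrolyses cholesteryl esters, had 4.30, 5.60 and 5.13 FPKM with RSL3, against 3.23, 3.90 and 3.39 FPKM with DMSO (log2 fold change 0.41 ± 0.11, adjusted p = 0.0728). All 3 passed without RSL3 replicate 1, where 5.11% of all tested genes rose, and in no other fit that left out 1 library.

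Of the other lipid enzymes 0 of 3 passed in limma, where 2.46% of all tested genes rose and 3.92% fell. At an unadjusted p under 0.05, 1 was higher (9.86% of all tested genes). The median was 0.07 (0.008 to 0.232 without single libraries). Pla2g15, the lysosomal phospholipase A2, had 8.87, 8.56 and 8.64 FPKM with RSL3, against 6.89, 7.41 and 7.21 FPKM with DMSO (log2 fold change 0.25 ± 0.07, adjusted p = 0.0839), with the groups apart. Ppt1, which removes palmitate from proteins, had 8.26, 12.4 and 10.6 FPKM with RSL3, against 9.80, 10.4 and 10.8 FPKM with DMSO (log2 fold change -0.004 ± 0.13, adjusted p = 0.990), and Ppt2, a related thioesterase, had 15.5, 9.99 and 13.6 FPKM with RSL3, against 11.1, 13.2 and 12.3 FPKM with DMSO (log2 fold change 0.07 ± 0.15, adjusted p = 0.829). In both the RSL3 libraries spread on either side of the DMSO libraries, and the sign depended on single libraries. Ppt2 shares 36.6% of its exonic bases with Gm20460 on the same strand.

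Of the 9 tested membrane proteins 3 rose and 0 fell, against 2.46% and 3.92% of all tested genes. Their median was 0.20 (0.31 with quantile normalization). Ctns, which exports cystine from the lysosome (ENSMUSG00000005949.9, chr11:73183596-73199042, minus strand), had 6.69, 7.41 and 7.95 FPKM with RSL3, against 4.72, 4.83 and 4.07 FPKM with DMSO (log2 fold change 0.59 ± 0.10, adjusted p = 0.0162). Cln3, the membrane protein lost in juvenile Batten disease (ENSMUSG00000030720.16, chr7:126571207-126585817, minus strand), had 2.79, 3.08 and 3.43 FPKM with RSL3, against 1.69, 1.86 and 1.54 FPKM with DMSO (log2 fold change 0.60 ± 0.09, adjusted p = 0.0143). Cd63, a tetraspanin of late endosomes and lysosomes (ENSMUSG00000025351.14, chr10:128900989-128912822, plus strand), had 74.8, 61.4 and 65.4 FPKM with RSL3, against 48.3, 47.5 and 47.6 FPKM with DMSO (log2 fold change 0.48 ± 0.08, adjusted p = 0.0176). The groups of all 3 were apart, and in Cln3 7.65% of exonic bases overlap Apobr on the other strand.

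Lamp1 and Lamp2, the main glycoproteins of the limiting membrane, did not pass. Lamp1 had 226, 271 and 270.1 FPKM with RSL3, against 219, 237 and 223 FPKM with DMSO (log2 fold change 0.17 ± 0.09, adjusted p = 0.267), and Lamp2 had 4.94, 7.17 and 6.81 FPKM with RSL3, against 4.94, 5.29 and 4.43 FPKM with DMSO (log2 fold change 0.30 ± 0.14, adjusted p = 0.227). RSL3 replicate 1 lay within the DMSO range in both and the other RSL3 libraries above it, and both passed without that library. Slc17a5, the sialic acid exporter, had the same order with 4.09, 5.03 and 5.32 FPKM with RSL3, against 3.98, 4.19 and 3.94 FPKM with DMSO (log2 fold change 0.20 ± 0.10, adjusted p = 0.277). Scarb2, the membrane protein LIMP2, had 35.1, 46.5 and 43.8 FPKM with RSL3, against 42.1, 44.9 and 40.8 FPKM with DMSO (log2 fold change -0.04 ± 0.11, adjusted p = 0.875), and its sign depended on single libraries. Tmem192, a lysosomal membrane protein of unclear role, had 17.7, 15.0 and 14.2 FPKM with RSL3, against 16.9, 18.5 and 18.0 FPKM with DMSO (log2 fold change -0.18 ± 0.09, adjusted p = 0.284). Only RSL3 replicate 1 of Tmem192 overlapped the DMSO libraries. Mcoln1, the cation channel TRPML1, was higher in every RSL3 library and did not pass (log2 fold change 0.18 ± 0.08, adjusted p = 0.247). Cd68, at 0.606, 0.598 and 0.596 FPKM with RSL3, against 0.413, 0.333 and 0.350 FPKM with DMSO, was not tested.

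Of 4 tested genes outside these classes 1 rose, against 2.46% of all tested genes. Creg1, a secreted and lysosomal glycoprotein (ENSMUSG00000040713.12, chr1:165763746-165775308, plus strand), had 33.7, 36.2 and 33.8 FPKM with RSL3, against 23.6, 23.6 and 21.3 FPKM with DMSO (log2 fold change 0.58 ± 0.07, adjusted p = 0.00562), with the groups apart. Grn, the progranulin precursor of granulins, had 71.6, 51.9 and 65.0 FPKM with RSL3, against 46.1, 47.8 and 40.0 FPKM with DMSO (log2 fold change 0.47 ± 0.13, adjusted p = 0.0712), and Plbd2, a phospholipase B-like protein, had 18.6, 15.3 and 17.4 FPKM with RSL3, against 13.7, 14.1 and 14.3 FPKM with DMSO (log2 fold change 0.27 ± 0.08, adjusted p = 0.104). RSL3 replicate 2 was the lowest RSL3 library in both, though above all DMSO libraries, and both passed without it. Acp2, the acid phosphatase made with a membrane span, overlapped (log2 fold change 0.15 ± 0.11, adjusted p = 0.455).

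By location, 8 of 39 tested soluble proteins rose (20.5%) and 3 of 12 membrane proteins rose (25.0%), against 2.46% of all tested genes. In either location 0 fell, against 3.92% of all tested genes. The medians were 0.18 for soluble and 0.19 for membrane proteins; no difference between them was tested. The soluble genes summed to 1675, 1661 and 1723 FPKM with RSL3 and 1438, 1503 and 1460 FPKM with DMSO. The membrane genes summed to 402, 449 and 450 FPKM with RSL3 and 368, 392 and 370 FPKM with DMSO. Both sums were higher in all RSL3 libraries. The libraries differed within the membrane group, where the median difference from the DMSO mean was 0.02 in RSL3 replicate 1, 0.26 in RSL3 replicate 2 and 0.31 in RSL3 replicate 3. For soluble genes those medians were 0.12, 0.20 and 0.23, and for all tested genes -0.10, 0.01 and 0.01. Without single libraries, 2 to 13 soluble and 0 to 7 membrane proteins rose. The share of all tested genes that rose also moved, being 0.444% without DMSO replicate 3 and 5.11% without RSL3 replicate 1.

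**Figure D4:**
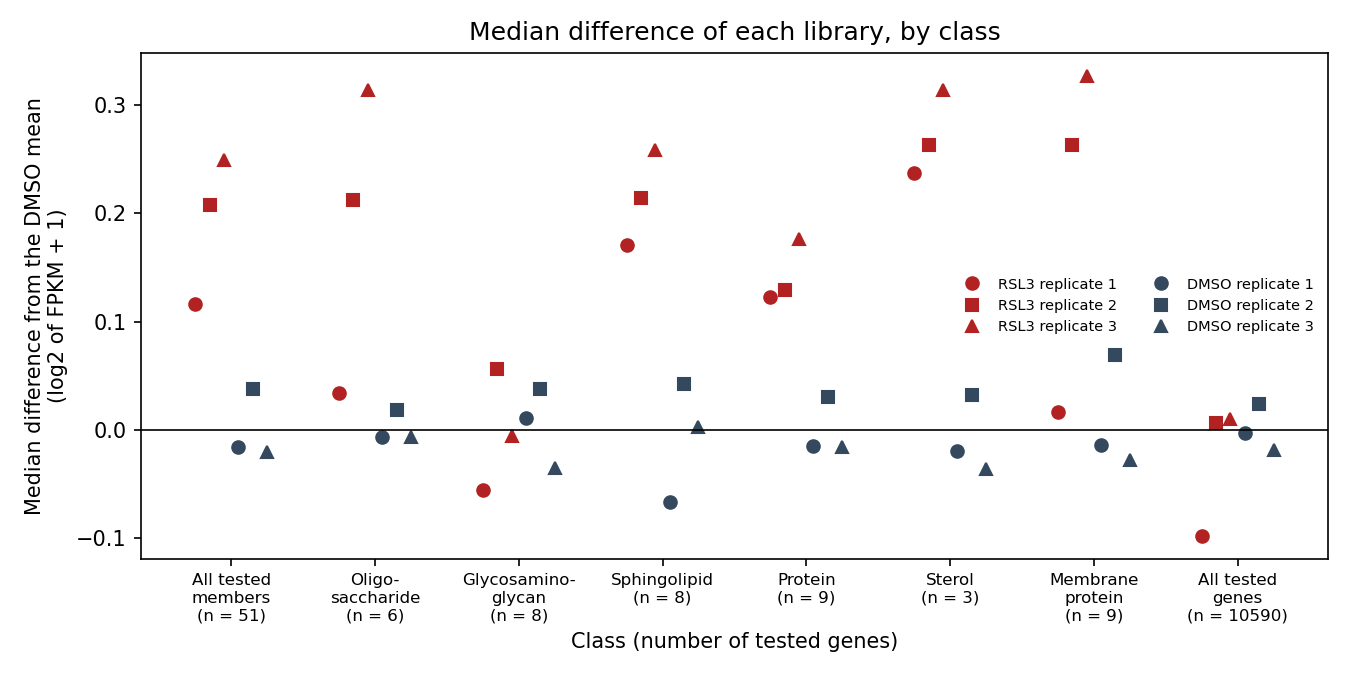
Median over the tested genes of a class of each library's difference from the DMSO mean, in log2(FPKM + 1); red symbols are the 3 RSL3 libraries and dark symbols the 3 DMSO libraries. The sterol genes are at 0.24 to 0.31 in all RSL3 libraries, the glycosaminoglycan genes are at -0.06 to 0.06 in them, and RSL3 replicate 1 is lowest for all tested genes (-0.10).

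Related lists, chosen with earlier results of these data known, were read in the same fit. Among 29 other tested lysosomal genes 2 rose (6.9%) and 0 fell, against 2.46% and 3.92% of all tested genes, with a median of 0.16. The 2 that rose were Glmp, a lysosomal membrane glycoprotein (5.06 FPKM with RSL3 and 3.12 FPKM with DMSO, log2 fold change 0.56 ± 0.10, adjusted p = 0.0197) and Slc29a3, a nucleoside transporter (6.60 FPKM with RSL3 and 4.66 FPKM with DMSO, log2 fold change 0.43 ± 0.08, adjusted p = 0.0273). A list for tagging and delivery goes beyond mannose 6-phosphate, with genes such as Sumf1, Vps35 and Hps1. Of its 29 tested genes 0 rose and 0 fell in limma, against 2.46% and 3.92% of all tested genes. Their median was 0.05. At an unadjusted p under 0.05, 7 were higher and 2 lower, against 9.86% and 14.3% of all tested genes. Every RSL3 library was above every DMSO library for 7 of the 29 (24.1%, against 13.4% of all tested genes). Every RSL3 library was below for 4 (13.8%, against 19.6%). Vps18, a subunit of the tethering complexes of endosomes and lysosomes, had the smallest p (11.8 FPKM with RSL3 and 9.31 FPKM with DMSO, log2 fold change 0.31 ± 0.07, adjusted p = 0.05003, above the threshold). Sort1, a sorting receptor for lysosomal proteins, was lower in every RSL3 library (18.4 FPKM with RSL3 and 22.1 FPKM with DMSO, log2 fold change -0.25 ± 0.06, adjusted p = 0.0576).

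Cstb, the cytosolic inhibitor of cysteine cathepsins, rose (218, 253 and 240.4 FPKM with RSL3, against 170, 163 and 161 FPKM with DMSO, log2 fold change 0.52 ± 0.07, adjusted p = 0.00892). Cst3, the secreted inhibitor, had overlapping groups (log2 fold change -0.05 ± 0.06, adjusted p = 0.692). The mRNAs of the MiT/TFE transcription factors, which bind promoters of lysosomal genes, also overlapped. Tfeb had 2.39 FPKM with RSL3 and 2.51 FPKM with DMSO (adjusted p = 0.809), Tfe3 had 6.22 FPKM with RSL3 and 6.08 FPKM with DMSO (adjusted p = 0.853), and Mitf had 1.67 FPKM with RSL3 and 1.83 FPKM with DMSO (adjusted p = 0.638). Of 19 targets of NRF2, a factor of the oxidative stress response, 10 rose and 0 fell, with a median of 0.37. Over all tested genes, 2.46% rose and 3.92% fell.

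MiT/TFE factors bind a sequence that contains TCACGTG, and the RefSeq promoters (GRCm38.p6, 250 bases before to 50 after the start) were searched for it on both strands. It was present in 6 of the 11 promoters of genes that rose (54.5%), in 6 of 33 of the tested members that did not pass and have an entry (18.2%), and in 7.4% of the 8270 tested genes with an entry. The longer TCACGTGA, which holds TCACGTG on each strand, was in 4 of 11 (36.4%), in 1 of 33 (3.03%) and in 2.35%. TGACNNNGC, the core of the element bound by NRF2, was in 3 of 11 (27.3%), in 7 of 33 (21.2%) and in 17.0%. TGAGTCA, also searched, was in 1 of 11 (9.09%), in 2 of 33 (6.06%) and in 4.09%. A gene with several entries counts where any of them holds the letters; Cln3 and Ctsa each have a second entry without TCACGTG. These counts are a description of letters in these windows and no test was made. Shown are the promoters of the 6 genes that rose and hold TCACGTG, with Lamp1, which holds it 4 times and did not pass; capitals mark TCACGTG on either strand.
Ctsd, chr7:142387778-142388077, minus strand: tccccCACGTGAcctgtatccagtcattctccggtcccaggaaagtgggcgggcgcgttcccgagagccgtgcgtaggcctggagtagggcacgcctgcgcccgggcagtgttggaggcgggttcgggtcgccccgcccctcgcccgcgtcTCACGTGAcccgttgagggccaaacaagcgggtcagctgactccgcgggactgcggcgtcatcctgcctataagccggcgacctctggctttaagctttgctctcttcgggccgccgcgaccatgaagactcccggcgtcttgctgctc
Ctsa, chr2:164833523-164833822, plus strand: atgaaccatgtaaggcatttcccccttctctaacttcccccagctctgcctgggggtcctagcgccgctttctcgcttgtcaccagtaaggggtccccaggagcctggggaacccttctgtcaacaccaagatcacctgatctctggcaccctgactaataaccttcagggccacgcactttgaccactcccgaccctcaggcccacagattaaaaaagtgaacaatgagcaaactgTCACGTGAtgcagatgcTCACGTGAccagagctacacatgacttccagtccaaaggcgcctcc
Gla, chrX:134600956-134601255, minus strand: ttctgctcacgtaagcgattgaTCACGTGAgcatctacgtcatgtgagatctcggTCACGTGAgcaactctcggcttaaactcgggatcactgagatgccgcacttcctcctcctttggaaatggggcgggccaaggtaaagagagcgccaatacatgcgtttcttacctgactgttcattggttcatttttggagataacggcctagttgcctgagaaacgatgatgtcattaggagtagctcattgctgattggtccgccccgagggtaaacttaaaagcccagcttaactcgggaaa
Cln3, chr7:126583187-126583486, minus strand: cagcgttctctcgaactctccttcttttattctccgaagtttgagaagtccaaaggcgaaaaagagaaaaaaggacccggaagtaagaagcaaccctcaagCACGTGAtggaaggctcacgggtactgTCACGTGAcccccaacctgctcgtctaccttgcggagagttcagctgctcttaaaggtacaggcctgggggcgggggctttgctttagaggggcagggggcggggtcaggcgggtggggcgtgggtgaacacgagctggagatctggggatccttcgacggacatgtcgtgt
Arsa, chr15:89477375-89477674, minus strand: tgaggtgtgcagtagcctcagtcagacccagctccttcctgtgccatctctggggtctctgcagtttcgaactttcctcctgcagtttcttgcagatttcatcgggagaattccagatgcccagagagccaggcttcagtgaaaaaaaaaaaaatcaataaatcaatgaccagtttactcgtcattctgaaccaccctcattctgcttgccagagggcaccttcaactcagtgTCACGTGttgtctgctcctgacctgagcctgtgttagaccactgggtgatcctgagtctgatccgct
Gaa, chr11:119267713-119268012, plus strand: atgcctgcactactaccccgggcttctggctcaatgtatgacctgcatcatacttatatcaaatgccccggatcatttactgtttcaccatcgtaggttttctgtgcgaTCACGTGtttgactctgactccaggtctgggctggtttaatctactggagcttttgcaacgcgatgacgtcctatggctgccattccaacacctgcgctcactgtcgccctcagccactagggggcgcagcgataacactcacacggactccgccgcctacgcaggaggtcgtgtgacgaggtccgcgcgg
Lamp1, chr8:13158911-13159210, plus strand: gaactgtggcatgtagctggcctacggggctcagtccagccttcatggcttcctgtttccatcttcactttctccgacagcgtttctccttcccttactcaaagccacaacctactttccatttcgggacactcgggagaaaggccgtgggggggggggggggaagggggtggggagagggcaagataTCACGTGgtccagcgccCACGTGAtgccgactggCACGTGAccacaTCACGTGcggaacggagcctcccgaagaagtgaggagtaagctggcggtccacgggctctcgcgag

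In Ctsa the letters lie at positions -13 and 5 from the RefSeq start (the start base is 1, the base before it -1), and in Arsa at -17; in Lamp1 all 4 lie between -62 and -16. Neu1, Creg1, Tpp1, Ctns and Cd63 rose and hold no TCACGTG in these windows.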

How the data were processed

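Poly(A)-selected RNA was made into libraries with a stranded kit, per the labels' protocols. The authors deposited mRNA and lncRNA values as FPKM; the tools named in the submitters' processing notes are cutadapt, HISAT2 and StringTie 1.3.3, with the build GRCm38. The annotation and filters behind them are not stated there. FPKM give no read counts, so depth and counting error are unknown; summed mRNA FPKM were 200135 to 213765 with RSL3 and 220605 to 225295 with DMSO. CircRNA tables were not used.

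Genes that reached 1 FPKM in 3 or more libraries were tested with limma 3.58.1 (R 4.3.3, mean-variance trend, two-sided) on log2(FPKM + 1), RSL3 against DMSO, with Benjamini-Hochberg adjustment over all 10590 genes at 0.05. Errors beside log2 fold changes are standard errors. The fit was also run on simulated data in which values were drawn independently for each gene and library. No effect shared across genes was simulated, so that run cannot show how such effects bear on the calls here. The labels state no pairing, so RSL3 and DMSO libraries with the same number were not paired in the fit. Their deviations from the group mean correlated across genes at -0.15, 0.049 and -0.062. With 3 libraries per group, these values cannot show whether same-numbered libraries were prepared together. Gene coordinates are from a GENCODE annotation of GRCm38.

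The members, classes and lists were chosen with earlier results of these data known, and 1 result of a related list is not reported here. All members may be named; values per library are given for those past the threshold, the 2 most abundant of each substrate class, the smallest p of a class with none passed, and those whose call or sign changed without 1 library. Alternatives were pseudocounts of 0.1 and 0.5, no filter, a filter of 5 FPKM, median-ratio and quantile scaling, no variance trend, a replicate block, removal of GC and length trends, and each library left out.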

Additional observations from a re-analysis of the deposited data

How the results depend on the processing

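The 11 genes that rose kept their direction in every alternative in which they were tested, and the count stayed at 11 with pseudocounts of 0.1 and 0.5, no filter and no variance trend, at 12 with a filter of 5 FPKM and at 14 with median-ratio scaling. It was 23 (7.51% of all tested genes) with GC and length trends removed, where 1 member, Gusb, fell, 19 (3.31%) with quantile normalization and 6 (0.831%) with the replicate block, which lost Arsa, Cln3, Ctns, Gaa and Tpp1. Without a single library, 2 to 20 members rose and 0 to 1 fell. The 6 genes under the block had all risen in the fit without it, and the labels state no pairing. The cause of these shifts was not tested.

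Signs changed in 7 members, none of which passed. With single libraries left out, the log2 fold change ran between -0.0019 and 0.0347 for Glb1, -0.0968 and 0.0686 for Idua, -0.0103 and 0.0523 for Hgsnat, -0.0799 and 0.0287 for Ctsf, -0.128 and 0.14 for Ppt1, -0.0593 and 0.232 for Ppt2, and -0.116 and 0.0823 for Scarb2. Ppt1 was at 0.0798 and Scarb2 at 0.0303 with GC and length trends removed; Ppt1 was at 0.0244 with median-ratio scaling; and Ppt1 was at 0.0489, Scarb2 at 0.0463 and Idua at 0.0072 with quantile normalization. FPKM carry no depth, so counting error at low levels, as for Idua, Ctsf and Cd68, is not known.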
